A study of Mus musculus with 4 samples.

Results

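In CLIP-seq of the RNA-binding protein MSI2 in mouse intestinal epithelium, 380 of the 16939 peaks of the TRE-Msi2 list were narrow, high-scoring and had no counterpart on the same strand in the wild-type (WT) list. They were chosen by 4 criteria: a score of 30 or more, a width under 1000 nt, no WT peak sharing 1 base on the same strand, and at least 1 base inside the span of a protein-coding gene. The steps left 4478, 4127, 740 and 380 peaks in turn. The scores are the authors' own and behave as reads per 200-nt bin. The score and the missing WT overlap chose these peaks, so both are given as descriptions and not as findings. The 380 peaks touched 367 genes, and 11 of them touched 2 protein-coding genes at once.

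MSI2 is one of the Musashi proteins, which bind mature and precursor RNAs through paired RNA recognition motifs and act on the translation and stability of the bound messages. Musashi binding is best known in untranslated regions at the 3′ end of messages. In the intestinal epithelium the proteins are known from stem and progenitor cells of the crypts.

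CLIP joins RNA to protein with ultraviolet light before the protein is precipitated, so a peak marks RNA held by the antibody's target or by what comes down with it. The 4 libraries came from C57BL6 mice, 2 WT and 2 TRE-Msi2, and all were made with 1 MSI2 antibody after 2 pulses of 265 nm light at 400 mJ/cm2; RNA was taken from the band near 50 kD. The TRE-Msi2 mice carry a doxycycline-inducible Msi2 transgene and gave total epithelium after 24 hours of doxycycline, whereas the WT material was crypts with no doxycycline recorded. The labels used here do not say what drives the inducer or how many mice gave a library. Genotype, drug and tissue fraction therefore cannot be told apart. Neither can more binding and more of a transcript, because no input or RNA abundance library was used here. In each peak list, peaks lay in 24 of 25 listed enterocyte genes, 6 of 16 immune genes and 0 of 13 stromal and muscle genes. Of 25 neuronal and synaptic genes, 18 held a TRE-Msi2 peak and 14 a WT peak, and of 8 tuft cell genes 0 and 1 did. Of all 21900 protein-coding genes, 5448 held a TRE-Msi2 peak. Each genotype had 1 pooled list of its 2 libraries, so replicate spread could not be had for any value and nothing was tested against it; the depth of the libraries is unknown, and scores are not compared between the lists as amounts. "Not called in WT" is not the same as unbound, since single-bin peaks start at a score of 15 for WT and at 20 for TRE-Msi2. All positions are on mm10. No member overlapped a gene start window (250 bases before to 50 after a start, 32851 windows), where 41 of the 2645 shared peaks (1.55%) did, and no peak sequence was used here.

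Of all TRE-Msi2 peaks, 42.4% had no WT peak on the same strand and 41% had none on either strand. Among the 3025 peaks that met the score, width and gene criteria, 12.6% (the 380) had none on the same strand and 9.82% (297) had none on either. The other 2645 had a WT peak on the same strand and are called shared peaks below. The scores of the 380 lay close to the threshold, with a lowest value of 30, a median of 32 and a highest value of 62. There were 83 from 30 to under 31, of which 65 were at exactly 30, then 205 from 31 to under 35, 67 from 35 to under 40, 18 from 40 to under 50, and 7 at 50 or more. Just inside the threshold were peaks in Mylk4, Gm10634 and Kcnk12 at 30, and just outside it peaks in Slc38a6, Tiam1 and Hlcs at 29.7. The authors' p-value was not used in the choice. It was above 0.05 for 7 of the 380, among them the Mylk4 peak (Piranha p-value 0.069), and for 0 of the single-bin members. A further 116 peaks met every other criterion at a score of 29 to under 30, so the threshold marks no gap in the scores. No peak of 1000 nt or more met the other 3 criteria, so the width limit did not change the final set.

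The share without a same-strand WT peak was lower in each higher score class, at 21.1% from 30 to under 35, 9.46% from 35 to under 40, 3.13% from 40 to under 50 and 1.86% at 50 or more. At shared single-bin peaks with a TRE-Msi2 score of 30 to under 31, the WT score had a lowest value of 15, a median of 19 and a highest value of 35 (157 peaks). At a TRE-Msi2 score of 50 or more it ran from 21 to 143 with a median of 35 (203 peaks). The WT scores at the weakest of these shared peaks thus reached down to the lowest single-bin score of the WT list, and at the strongest they did not.

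The 380 fell into 3 kinds by how their score was formed. A single 200-nt bin made up 320 of them, 56 were 400 nt wide and 4 were 600 nt wide. Each whole score of a single-bin peak has a usual p-value in its list, and 239 members carried it. The other 81 single-bin members had a p-value that did not belong to their score, and each equalled the mean score and the mean p-value of exactly 1 pair of whole scores. These are called averaged peaks here. The Kcnk12 peak at the threshold is among them, with values of 22 and 38. All 81 lay on the + strand. In the whole TRE-Msi2 list 639 of 9962 single-bin peaks (6.41%) were of this kind, 635 of them on the + strand; in the WT list 132 of 7626 (1.73%) were, all on the + strand. Neither list holds both strands at the same place except for 7 TRE-Msi2 peaks. What the 2 averaged values stand for is not stated in the data, and whether they belong to the 2 strands of a place was not tested.

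**Figure D1:**
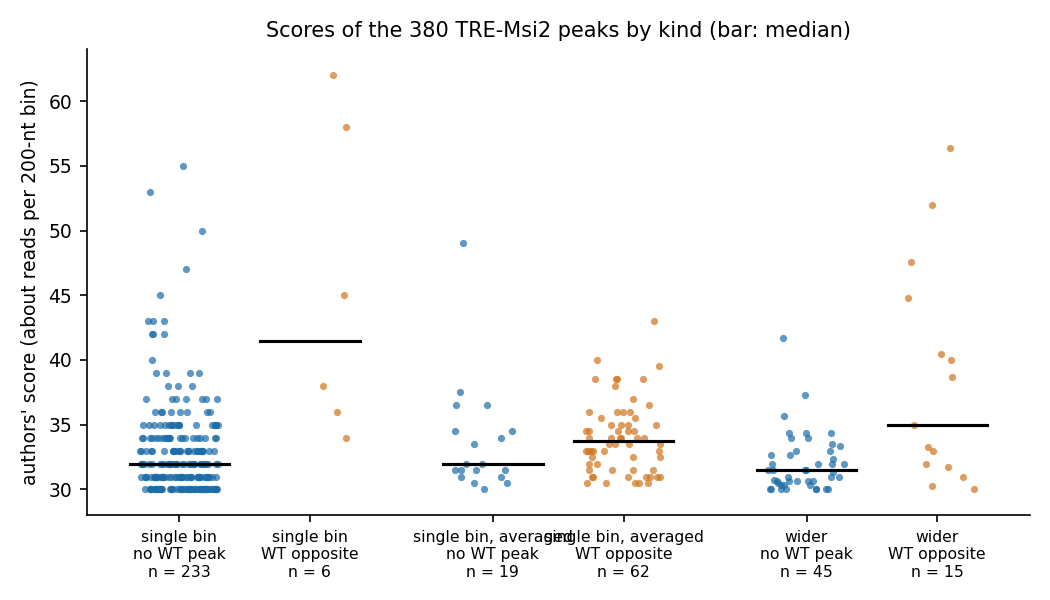
The authors' score of each of the 380 TRE-Msi2 peaks (1 point a peak), split into single-bin, averaged single-bin and wider peaks and by whether a WT peak lay on the opposite strand; bars are medians. Averaged peaks make up 62 of the 83 members with a WT peak on the opposite strand and 19 of the 297 with none.

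A WT peak on the opposite strand covered 83 of the 380 members, in 70 cases with the same start and end. Among all TRE-Msi2 peaks without a same-strand WT peak the share was 3.28%. Of the 83, 62 were averaged peaks, 15 were wider and 6 were single-bin peaks with the usual p-value. In 72 pairs the TRE-Msi2 peak was on the + strand and the WT peak on the - strand. In the 62 averaged members the lower value ran from 20 to 37 with a median of 24, the higher from 32 to 55 with a median of 43, and the WT score at the same place from 15 to 38 with a median of 26. In 57 of the 62 the lower value was under the threshold of 30, as the plot of averaged pairs shows. For 5 of the 6 others in a single bin, the WT peak was itself averaged or wider. The gene's strand was known for 60 of the 83 pairs; the TRE-Msi2 peak lay on it in 30 and the WT peak in the other 30. For these 83 places the lists differ in the strand they name, and whether the same strand was bound in both was not tested.

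**Figure D2:**
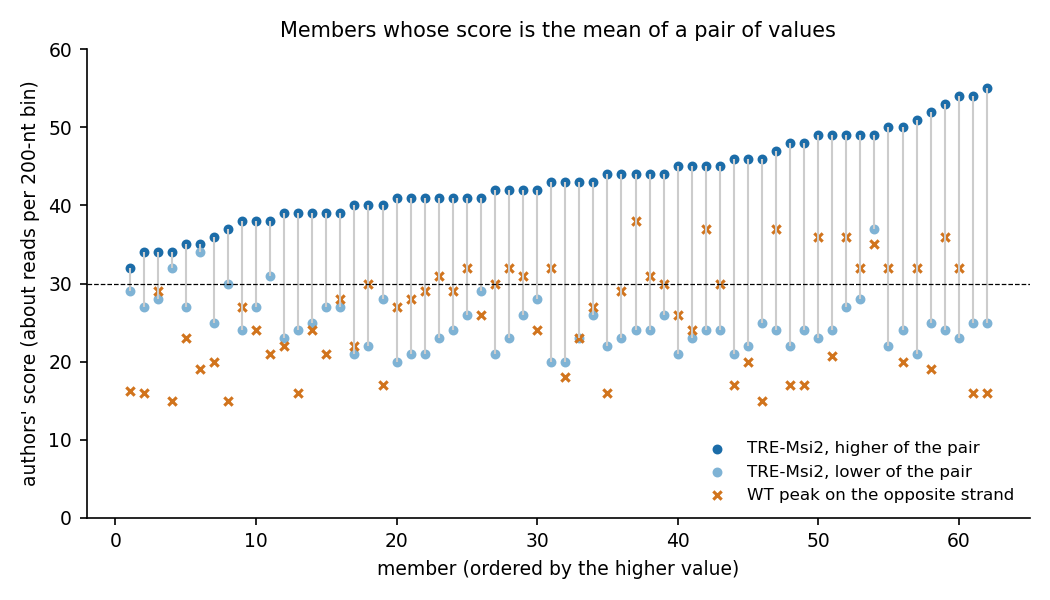
For the 62 averaged members with a WT peak on the opposite strand, the higher and lower of the paired TRE-Msi2 values (joined by a line) and the WT score at that place. All are on the scale of the authors' score, about reads per 200-nt bin. The dashed line is the threshold of 30. The lower values have a median of 24 and the WT scores a median of 26.

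The highest scores were partly of this kind. The top member lay in Tacr1, the substance P receptor gene, at chr6:82558007-82558206, with a score of 62 on the - strand, opposite to the gene. At exactly these positions the WT list has a score of 22 on the + strand, which was the mean of 16 and 28. The next lay in Hnrnpd, which codes for an RNA-binding protein of AU-rich elements, at chr5:99958182-99958381, with 58 on the - strand, the strand of the gene. There the WT list has 23 on the + strand, the mean of 16 and 30. Tyms, the thymidylate synthase gene, had 56.4 on the + strand over 600 nt against a WT peak of 48.3 on the - strand, which is the strand of the gene. Neither of these Tyms scores was a mean of whole reads over the bins of its peak. Atp7a, a copper transporter gene, had 52 with a WT peak of 22.7 on the opposite strand. Crp, the C-reactive protein gene, had 43, the mean of 37 and 49, against 35 in WT. Of the 25 members scored 40 or more, 11 had such an opposite-strand WT peak, 12 had another WT peak elsewhere in the gene and 7 lay in a gene with no WT peak.

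The members of highest score without a WT peak on either strand, from 55 down to 43, are given next. Amer1, which codes for a negative regulator of Wnt signalling on the X chromosome, held 1 TRE-Msi2 peak, of 55, and no WT peak. Rab3c, a vesicle GTPase gene, held 53 at 5.91 kb from the gene end on its own strand, beside 2 peaks of 21. Dcc, the netrin receptor gene, held 50 and 2 peaks of 21. Klk14, a secreted protease gene, held an averaged peak of 49 whose values were 24 and 74. Cyp3a13, a xenobiotic-metabolizing cytochrome, held 47 among 14 TRE-Msi2 and 4 WT peaks, and the nearest same-strand WT peak was 1.6 kb away. Erp44, Mt1 and Pdcd6ip each held a member of 43. Erp44, an endoplasmic reticulum chaperone of secreted proteins, had 9 TRE-Msi2 and 5 WT peaks, and Pdcd6ip, an endosomal sorting protein, had 9 and 4. Mt1, a metal-binding metallothionein, had this 1 peak and none in WT.

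Another WT peak elsewhere in the gene was present for 263 of the 380 members (69.2%, exact Clopper-Pearson 95% interval 64.3 to 73.8, counting error only). The same share was 67.5% (65.7 to 69.3) for the shared peaks, inside the members' interval. Counting only WT peaks on the peak's own strand, the order turned: the share was 59.5% (54.3 to 64.5) for the members and 65.1% (63.3 to 67) for the shared peaks, above the members' interval. On that count the 297 members without a WT peak on either strand were at 72.1% (66.6 to 77.1) and the 83 with one on the opposite strand at 14.5% (7.7 to 23.9). For 45 members the only WT peak of the gene was the one at the same place on the opposite strand, and 72 members lay in genes with no WT peak at all. The 263 are sites in gene spans that the WT list also covers, for 37 of them only on the strand opposite to the member.

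By gene, 76 of the 367 had no WT peak, 101 had 1, 154 had 2 to 5 and 36 had 6 or more. Of the 5448 protein-coding genes with a TRE-Msi2 peak, 6.74% held a member and 23.2% had no WT peak. Of the 76, 51 had the member as their single TRE-Msi2 peak, 15 had 2 peaks and 10 had 3 or more. Members were the highest TRE-Msi2 peak of their gene in 266 cases (70%), against 67.8% of shared peaks. Neither Msi1 nor Msi2 held a member.

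The 10 genes with a member, at least 3 TRE-Msi2 peaks and no WT peak are described next. Zfr, a zinc finger RNA-binding protein gene, held 6 peaks with scores of 20 to 30, all on its own strand, and the member of 30 lay 0.704 kb from the gene end. Rsad2, the antiviral protein viperin, held 4 on its own strand, with scores of 20, 15, 35 and 26 at 11.6, 12.1, 12.6 and 13.4 kb of its span of 13.7 kb, as the maps of 4 genes show. Nipal1, a magnesium transporter gene, held 3, of which the peaks of 35 and 33 were members at 2.82 and 0.416 kb from the gene end. Tut7, which codes for an enzyme that adds uridines to RNA ends, held 4 with scores of 22 to 31, and 1810055G02Rik held 3. Trim12c held 4, with a member of 32. Dynlt1c and Dynlt1f, dynein light chain genes, had members of 36 each with 4 and 3 peaks. In both genes the member overlapped another TRE-Msi2 peak of the same strand, and the peaks covered 2 separate places each. Their relative Dynlt1a had 1 of 32. The Dynlt1 and Trim12 genes have near-identical copies, so the counting could split or share their reads and these values are uncertain. Rab3c and Dcc complete the 10.

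**Figure D3:**
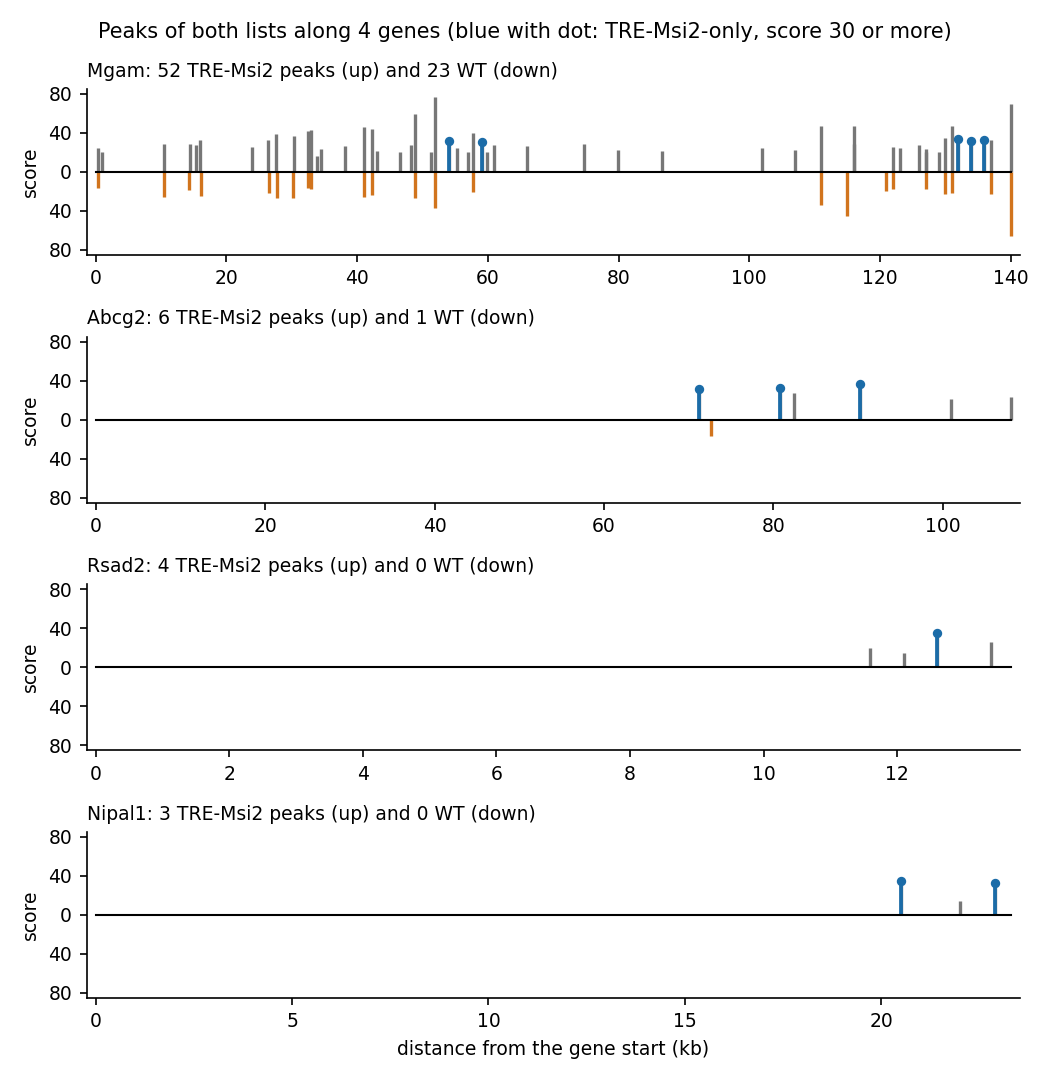
Positions (kb from the gene start) and authors' scores (about reads per 200-nt bin) of all peaks along Mgam, Abcg2, Rsad2 and Nipal1. TRE-Msi2 peaks point upwards and WT peaks downwards, and blue lines with a dot are members. Mgam holds 23 WT peaks and Abcg2 holds 1, and Rsad2 and Nipal1 hold none.

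Most genes (348) held 1 member, 16 held 2, Abcg2 and Cdh17 held 3 and Mgam held 5. Mgam, a brush-border disaccharidase that completes starch digestion, spans chr6:40628831-40769123 and held 52 TRE-Msi2 and 23 WT peaks, all on the gene's strand. Its members had scores of 34, 33, 32, 31.5 and 31 beside other TRE-Msi2 peaks of up to 77 and WT peaks of up to 66. They lay at 54, 59.1, 132, 134 and 136 kb of the 140 kb span, between places that both lists called. Cdh17, an intestinal cadherin, held 16 TRE-Msi2 and 10 WT peaks, with members of 39, 31 and 30. Every WT peak of Cdh17 lay at a place with a TRE-Msi2 peak. Abcg2, an efflux transporter of drugs and urate, differed from these: its 6 TRE-Msi2 peaks ran from 21 to 36, with members of 36, 32 and 31, and the WT list had 1 peak, of 17. Of the 16 with 2 members, Nipal1 had no WT peak, and the others had 2 to 9.

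The lists of cell type and pathway genes held few members. These lists were chosen with earlier results of these data known. The share of all genes with a peak is not matched for span or number of peaks. The shares by list are therefore descriptions only, here and below. Of 24 enterocyte genes with a TRE-Msi2 peak, 5 held a member, 20.8% beside 6.74% of all genes with a peak. Among these were Mgam, Cdh17, the glucose transporter Slc5a1 and the microvillus protein Vil1, and all 5 also held WT peaks. In Slc5a1 the member of 34 stood beside 4 WT peaks, the highest 56.1. In Vil1 the member of 31 stood beside 6 WT peaks, the highest 56. Enterocyte genes carried many peaks each, and the tissue fraction differed between the genotypes, so abundance and binding cannot be told apart here.

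No member lay in any listed Paneth, goblet, enteroendocrine, tuft or stem cell gene, nor in a listed proliferation, Notch, PI3K-Akt-mTORC1, immune or stromal gene. TRE-Msi2 peaks were present in 12, 5, 8, 0, 14, 13, 5, 13, 6 and 0 genes of these lists, and beside 6.74% of all genes with a peak these lists are too short for a count of 0 to be read as an absence. In the Wnt list the member in Amer1 was in 1 of 12 genes with a TRE-Msi2 peak (8.33%). In the BMP and TGF-beta list 1 of 14 (7.14%) held a member, Id1, a target gene of the pathway, with 33 and no WT peak. In the RNA-binding list 2 of 23 (8.7%) did, Hnrnpd and the helicase gene Ddx5, whose member of 34 lay 0.2 kb from a WT peak. In the stress list 2 of 13 (15.4%) did, Mt1 and the chaperone gene Dnajb1 (30), and neither had a WT peak.

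Of 7 interferon-response genes with a TRE-Msi2 peak, 3 held a member (42.9%, beside the 6.74% of all genes with a peak). A list of 7 genes is too short for this share to be read as an enrichment. Rsad2 had 35 and no WT peak. Ifit1, an RNA sensor, had 31 beside 1 WT peak of 23, and the span of Ifit1bl1 overlaps it there. No interferon treatment is recorded in the labels.

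Of 18 neuronal and synaptic genes with a TRE-Msi2 peak, 6 held a member (33.3%, beside the same 6.74%). Rab3c and Dcc of this list are also among the highest-scoring members, and the list was chosen with earlier results known. This share is therefore not a test of an enrichment. The spans of the 6 genes ran from 227 kb in Rab3c to 2241 kb in Cntnap2, and the members of Rab3c and Lsamp (32) lay on the gene's strand. The member of Cntnap2 (30) lay on the other strand, and the strands of Csmd1 and Dcc were not known here. In Csmd1 (34.3) and Cntnap2 the member stood 1 kb from a WT peak of the same strand.

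Place along the gene was not used in the choice. Gene spans had a median of 45.4 kb for members and 30.9 kb for shared peaks. Taken along the reads, 101 of 369 members over 1 protein-coding gene (27.4%, 22.9 to 32.2) lay in the last 10% of the span, against 42.1% (40.2 to 44.1) of shared peaks. In the last 2 kb of genes of 10 kb or more the shares were 18.3% (14.2 to 22.9) and 33.2% (31.2 to 35.2). Limited to single-bin peaks with the usual p-value, and for the members to those without a WT peak on either strand, the shares in the last 10% were 32.6% (26.5 to 39.1) and 38.3% (35.9 to 40.8), with intervals that overlap. For shared peaks of that kind scored under 40 the share was 41% (37.9 to 44.1). The median distance to the gene end, in the gene's direction, was 7.88 kb for members and 2.51 kb for shared peaks. The members' shares at the gene end were the lower ones in each of these pairs, by the least in the comparison of single-bin peaks.

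**Figure D4:**
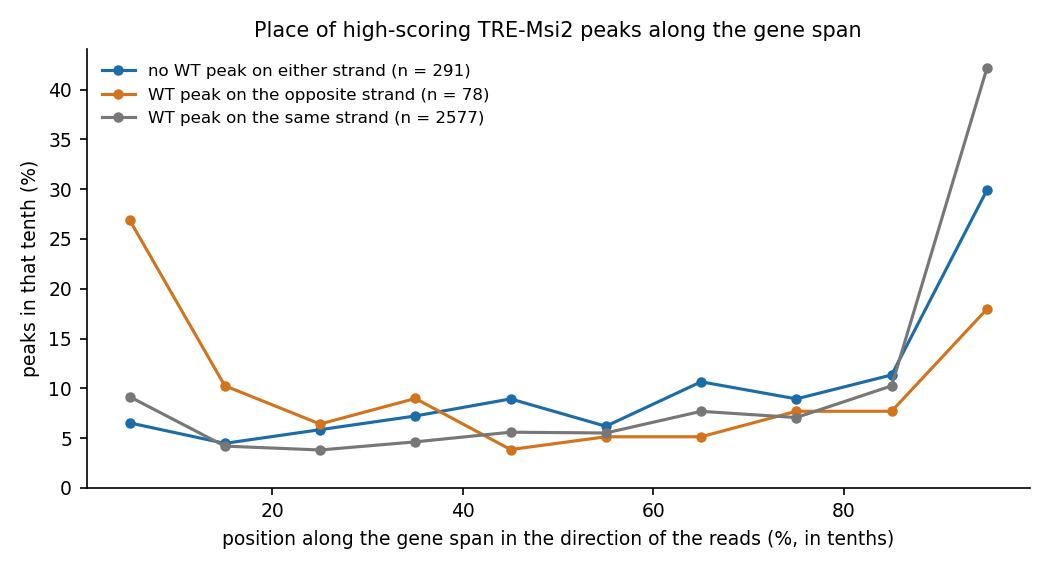
Share of peaks (%) in each of 10 equal stretches of the gene span, ordered along the reads, for members without a WT peak on either strand, members with one on the opposite strand and shared peaks. In the last stretch the shares are 29.9%, 17.9% and 42.1%, and in the first 6.53%, 26.9% and 9.16%.

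Along the reads, the 83 members with an opposite-strand WT peak were placed otherwise. Of the 83, 62 were averaged peaks, which are all given on the + strand. Of the 78 of them over 1 gene, 26.9% (17.5 to 38.2) lay in the first 10% of the span and 17.9% (10.2 to 28.3) in the last, along the reads. Along the gene, where its strand was known, 40% (27.6 to 53.5) lay in the last 10%. That interval holds the values of both other sets in this direction. They were 47.6% (45.4 to 49.7) for shared peaks and 30.7% for members without a WT peak on either strand. A different place along the gene is therefore not shown for the 83. For the members without a WT peak on either strand both ways of reading gave like values, 29.9% and 30.7%.

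Strand separated the members further. Of the 278 members over 1 gene of known strand, 206 (74.1%, 68.5 to 79.1) lay on the strand of the gene, against 87.1% (85.6 to 88.5) of shared peaks. Among single-bin members with the usual p-value and no WT peak on either strand the share was 86.9% (80.8 to 91.6), against 86.8% (84.8 to 88.6) of shared peaks of that kind. Of the 72 members on the other strand, 28 were averaged peaks, 20 were wider and 24 were single-bin peaks with the usual p-value. A WT peak on the opposite strand was present for 30 of the 72 and absent for 42.

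Of these 42, most had a fixed spacing to the WT list. A gap of exactly 1000 nt to a WT peak upstream on their own strand, along the reads, was present for 28 (66.7%, 50.5 to 80.4). None stood at that gap upstream of a WT peak. Both lists are built of 200-nt bins with mostly the same edges. Gaps therefore come mostly in steps of 200 nt, and this spacing is known only to that resolution and not to the base. Among all 72 members on the other strand the 28 were 38.9% (27.6 to 51.1). Of the 206 members on the gene's strand, 10 (4.85%) had such an upstream WT peak, and of the shared peaks 105 (3.97%) did. Of the 176 on the gene's strand without a WT peak on either strand, 10 (5.68%) did, to be set beside the 66.7%. The sets that follow were not split by opposite-strand WT peaks, so they stand beside the 38.9%. Among the shared peaks on the other strand the arrangement was present for 23 of 269 (8.55%, 5.5 to 12.6). Among TRE-Msi2-only peaks in coding genes on the other strand with a score under 30 it was present for 72 of 402 (17.9%, 14.3 to 22). Among high-scoring narrow TRE-Msi2-only peaks outside protein-coding genes it was 142 of 360 (39.4%, 34.4 to 44.7), with 5 at the same gap on the other side. The plot of gaps shows the other distances. In all, 47 members on 18 chromosomes had this arrangement, and none of the 47 had a WT peak on the opposite strand.

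**Figure D5:**
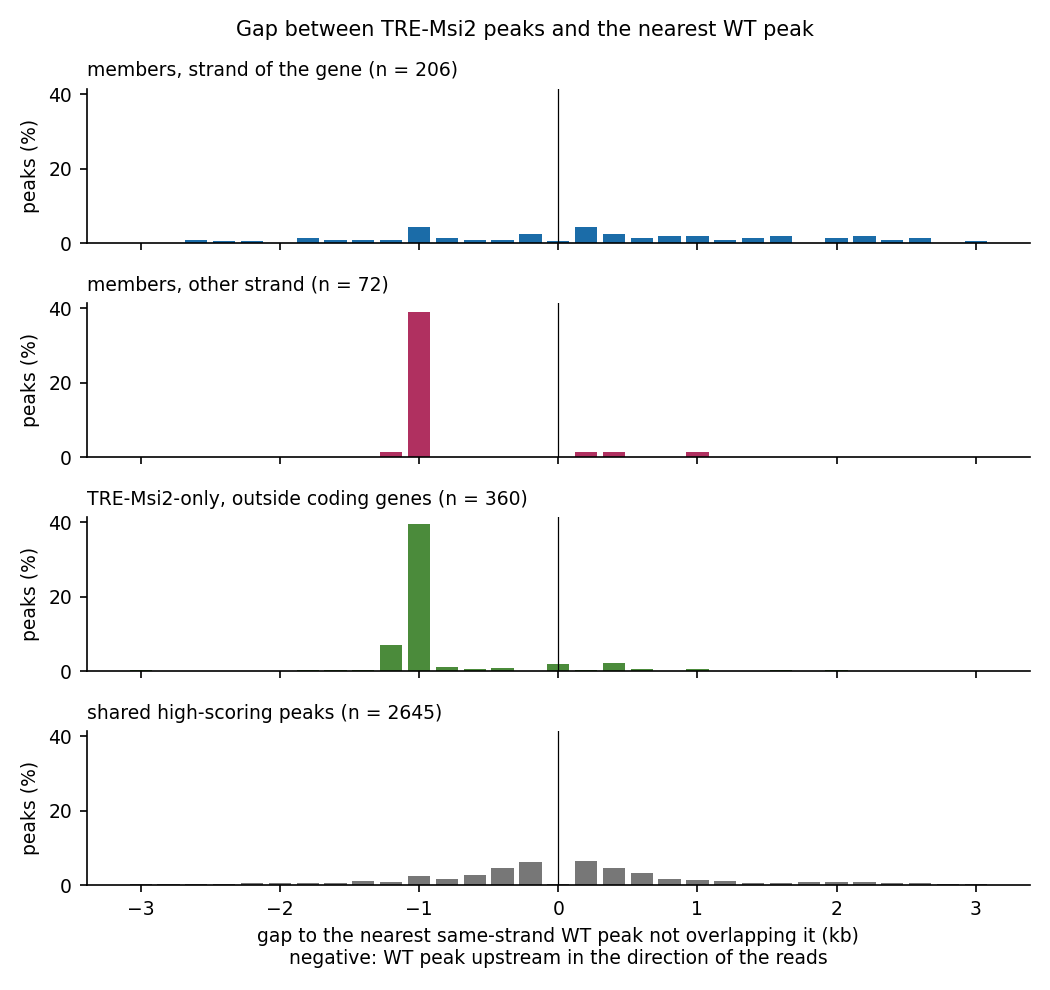
Signed gap (kb, steps of 0.2) from each peak to the nearest WT peak of the same strand that does not overlap it, as a share of each set (%), for members on the gene's strand, members on the other strand, TRE-Msi2-only peaks outside coding genes and shared peaks; negative gaps have the WT peak upstream. The bar at a gap of 1 kb upstream holds 28 of the 72 members on the other strand and 142 of the 360 peaks outside coding genes.

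In these 47 the upstream place was called in both lists. The member had a score of 30 to 42 with a median of 32, the WT peak upstream 12.1 to 33 with a median of 18 and a median width of 400 nt, and the TRE-Msi2 list had exactly 1 peak over each, with a median score of 23.4. The genes were long, with a median span of 173 kb for the 47 and 272 kb for the 28. In Macrod2 the member of 42 lay in a span of 1998 kb on the strand opposite to the gene, 1 kb downstream of a peak of 18 in WT and 24.6 in TRE-Msi2. In Slc2a9, a urate transporter gene, the member of 42 lay on the other strand, and the upstream peaks were 12.7 and 21.7. Phf8 (37), Kalrn (36.5), Dcaf5 (35.7), Fhit (34.3), Lrrc4c (34) and Tenm4 (33) had the same arrangement on the other strand. On the strand of the gene it occurred in Mgam for the members of 34 and 31, where the upstream peaks were 22 and 20.5 in WT. The cause of this arrangement was not tested.

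A WT peak of the same strand that did not overlap lay less than 1 kb away for 48 of the 380 members (12.6%, 9.46 to 16.4) and for 31.6% (29.8 to 33.4) of shared peaks. With gaps of exactly 1000 nt counted, the members' share was 26.6% and that of shared peaks 35.6%. Within 10 kb the shares were 49.7% and 59.8%. The closest was in Mxi1, a MAX-binding repressor gene, where the member of 35 lay directly beside a WT peak, 0.682 kb from the gene end.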

How the data were processed

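Peaks were called with Piranha on reads without duplicates, with the 2 libraries of a genotype merged, per the file names; the submitters' processing notes name cutadapt, TopHat, mm9 and mm10, with no version. The deposited values join the authors' score and a p-value in 1 cell and were used as given. Positions were read on mm10 and written from 1. Genes were spans of a RefSeq table of GRCm38.p6 (21900 protein-coding genes); the strand came from RefSeq start windows for 17492 of them, and exons were not used here. An averaged peak is a single-bin peak whose p-value differs by more than 0.0001 of itself from the commonest one of its score; its 2 values reproduce score and p-value within 0.001. Shares carry exact Clopper-Pearson 95% intervals, which cover counting error only. Selection and the search for averaged values were tested on simulated data. The members, the 17 gene lists and the naming rule (top 25 by score, genes with several members, list genes, genes without a WT peak and 3 or more peaks, peaks within 200 nt of a WT peak, threshold neighbours) were chosen with earlier results of these data known; the kinds of peak and the fixed gap were defined after seeing the data. The values of some list genes are not reported here. Tools were Python 3.11.15, pandas 2.3.3, numpy 2.4.6 and scipy 1.17.1.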

Additional observations from a re-analysis of the deposited data

How the results depend on the processing

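Of 81 alternative values of the 6 main results, 55 stayed within the counting interval of the value given (for the number of peaks, within 1.5 times it) and 26 did not. A minimum score of 25, 35 or 40 left 1398, 92 or 25 peaks, and 233 were single-bin peaks with the usual p-value and no WT peak on either strand. The share with another WT peak in the gene was 58.7% at a score of 35, 48% at 40, 75.8% with WT overlap counted on either strand, 59.5% with WT peaks of the member's own strand, 81.1% with those at the same place on the opposite strand, and 58.1% with WT peaks up to 1000 nt away counted as overlap. The last 10% of the span held 20% at a score of 40, 32.7% read in the direction of the gene and 32.6% of the 233; the last 2 kb held 9.52% at 40. The strand of the gene held 82.4%, 66.2% and 50% at 25, 35 and 40, 80.7% with overlap on either strand, 79.5% with WT peaks up to 1000 nt away as overlap, 79.7% without averaged peaks and 86.9% of the 233. A same-strand WT peak lay less than 1 kb from 19.5%, 8.7% and 0% (0 of 25) at 25, 35 and 40, from 26.6% with gaps of exactly 1000 nt counted, and from 16.7% of the 233. Counting WT peaks within 1000 nt as overlap leaves no value for that last share by construction, so it was not run. Alternatives on averaged peaks, on opposite-strand peaks at the same place and on gaps of 1000 nt were added after seeing the data. No paired analysis was possible because the 2 libraries of each genotype were deposited as 1 pooled list. Unknown depth, pooled libraries, gene spans without exons and the missing strand of some genes limit every share.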
